A study of Mus musculus with 6 samples.

Results

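Complex I of the respiratory chain was described in mouse hearts through 42 of its subunit genes, out of 36558 genes in the authors' deposited table. The genes were matched by symbol, and comprised 35 encoded in the nucleus and 7 encoded in mitochondrial DNA. All 42 had an adjusted p, so none was lost to the filter on low values. Complex I (NADH:ubiquinone oxidoreductase) takes electrons from NADH, passes them through a flavin and a chain of iron-sulfur clusters to ubiquinone, and pumps protons across the inner mitochondrial membrane. It is shaped like an L. The matrix arm holds the N module, which oxidises NADH, and the Q module, which reduces ubiquinone, and the membrane arm pumps protons. Core subunits carry out this chemistry and are shared with bacteria, while accessory subunits surround them and are needed for assembly and stability. The heart depends on this enzyme for most of its ATP.

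Poly(A)-selected RNA from the hearts of 3 control and 3 cKO mice was sequenced. Control mice carried Srsf3 alleles flanked by loxP sites (Srsf3Fl/Fl), and cKO mice carried the same alleles with βMHC-Cre (Srsf3Fl/Fl-βMHC-Cre). This transgene drives Cre recombinase from the Myh7 promoter in cardiomyocytes, beginning in utero, so other heart cells keep the gene. SRSF3 is one of the SR proteins, which bind pre-mRNA and guide its splicing. Both groups carried floxed alleles, no group carried Cre alone, and the ages of the mice were not given in the sources used here.

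All gene values below are those of the authors' deposited table, which holds 1 mean over the 6 libraries and 1 log2 fold change per gene, and all inclusion levels are 1 value per group. No value per heart was used, so the spread within a group enters through the authors' standard errors and depth per sample is unknown. The table does not name the reference group of a fold change. Positive values were taken as higher in cKO, because 593 of 626 genes outside complex I that passed the test (94.7%) had the sign of the read depth behind their near-constitutive exons. Srsf3 itself had a log2 fold change of 0.02 (SE 0.07, adjusted p = 0.935, authors' DESeq2 Wald test), a sum over all its transcripts in whole heart that does not check the deletion. Of 15 cardiomyocyte markers 14 were negative, 7 fell and 1 rose, with a median of -0.28, and all 15 myeloid markers were positive, 7 of them past the test, with a median of 0.59. For those markers too only 1 mean and 1 fold change per gene were used, so their summed level per heart is not given. In whole hearts, fewer cells of a type and less RNA per cell cannot be told apart.

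Many nuclear subunit mRNAs of complex I were slightly lower in cKO hearts, in every arm of the complex, and no mitochondrially encoded subunit mRNA passed the test. In the authors' deposited table all 35 nuclear subunits had a negative fold change, with a median of -0.27 on the log2 scale, which is a change of -17.2%, and a range of -0.43 to -0.03. Of these, 11 fell at an adjusted p under 0.05 (DESeq2 Wald test, Benjamini-Hochberg over 15929 genes) and none rose. Across all genes tested 3.31% fell and 3.78% rose, and 7.00% fell among the 1885 genes whose mean lies in the range of the nuclear subunits. At an unadjusted p under 0.05 the count of nuclear subunits was 24, against 9.24% of all genes and 17.4% of those in the same range of means. A negative sign, with no test, was held by 50.8% of all genes and by 59.6% of those in the same range of means, whose median was -0.04.

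**Figure D1:**
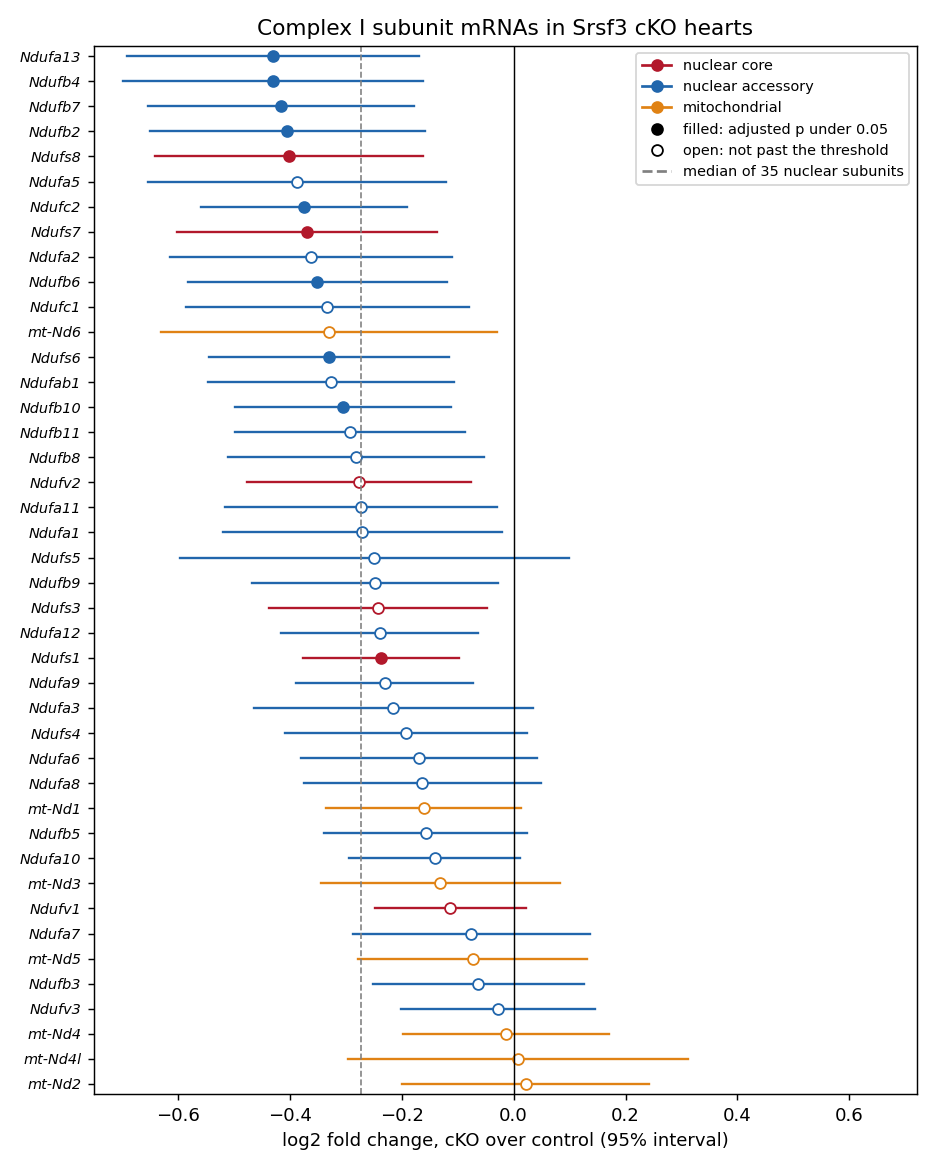
Log2 fold change (cKO over control) of each of the 42 complex I subunit mRNAs, with bars for the 95% interval from the authors' standard error. Filled points passed at an adjusted p under 0.05. All 35 nuclear subunits lie left of 0, around a median of -0.27, and the 7 mitochondrially encoded ones lie between -0.33 and 0.02.

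Among the nuclear core subunits, which include the proteins that bind the cofactors, 3 of 6 fell: Ndufs8, Ndufs7 and Ndufs1. Ndufs8 (chr19:3908863-3912774, minus strand, GRCm38), an iron-sulfur protein of the Q module, had a mean of 6323 normalized counts and a log2 fold change of -0.40 in the authors' deposited table (SE 0.12, adjusted p = 0.0220). Ndufs7 (chr10:80249121-80256794, plus strand), which carries the cluster that hands electrons to ubiquinone, had a mean of 5298 and a log2 fold change of -0.37 (SE 0.12, adjusted p = 0.0327). Ndufs1 (chr1:63143596-63176833, minus strand), the large iron-sulfur protein of the N module, had the smallest standard error of these 3. Its mean was 16630 and its log2 fold change -0.24 (SE 0.07, adjusted p = 0.0194), so a change of -15.2% passed. The other core subunits did not pass. Ndufv2, an iron-sulfur protein of the N module, had a log2 fold change of -0.28 (adjusted p = 0.0775). Ndufs3, of the Q module, stood at -0.24 (adjusted p = 0.126). Ndufv1, which binds NADH and the flavin and so is the entry point of electrons, had -0.11 with a 95% interval of -0.25 to 0.02 (adjusted p = 0.383).

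The accessory subunits, which surround the core, had a similar median. Of 29 accessory subunits 8 fell, with a median log2 fold change of -0.27, against -0.26 for the 6 nuclear core subunits. The difference of these medians, core minus accessory, was 0.01 and is given with no test, since genes of one set of hearts are not replicates. The 8 were Ndufa13, Ndufb4, Ndufb7, Ndufb2, Ndufc2, Ndufb6, Ndufs6 and Ndufb10. In the authors' deposited table Ndufa13 (chr8:69894180-69902558, minus strand), also known as GRIM-19 and first described in cell death, had a mean of 10892 and a log2 fold change of -0.43 (SE 0.13, adjusted p = 0.0246), a change of -25.8%. Ndufc2 (chr7:97400003-97407802, plus strand), of the membrane arm, had the smallest adjusted p of all members, 0.00300, with a log2 fold change of -0.37 (SE 0.09) at a mean of 6732. Ndufs6 (chr13:73319838-73328542, minus strand), a zinc-binding protein of the N module, stood at -0.33 (SE 0.11, adjusted p = 0.0397).

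The distal membrane arm, the end of the proton-pumping arm, held 5 of the 11 subunits that fell. In the authors' deposited table these were Ndufb4 (log2 fold change -0.43, SE 0.14, adjusted p = 0.0295), Ndufb7 (-0.42, SE 0.12, adjusted p = 0.0152), Ndufb2 (-0.40, SE 0.13, adjusted p = 0.0258), Ndufb6 (-0.35, SE 0.12, adjusted p = 0.0446) and Ndufb10 (-0.31, SE 0.10, adjusted p = 0.0336). NDUFB7 and NDUFB10 are disulfide-bonded proteins of the intermembrane space face. Their means ran from 3394 for Ndufb4 to 13302 for Ndufb10. By place in the complex, 5 of 10 nuclear subunits of the distal membrane arm fell (median -0.30), 2 of 9 of the proximal membrane arm (median -0.27), 2 of 8 of the N module (median -0.24) and 2 of 7 of the Q module and the base of the matrix arm (median -0.24). No difference between modules was tested, and Ndufb2, Ndufb4 and Ndufb6 share sequence with other genes, as given below.

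**Figure D2:**
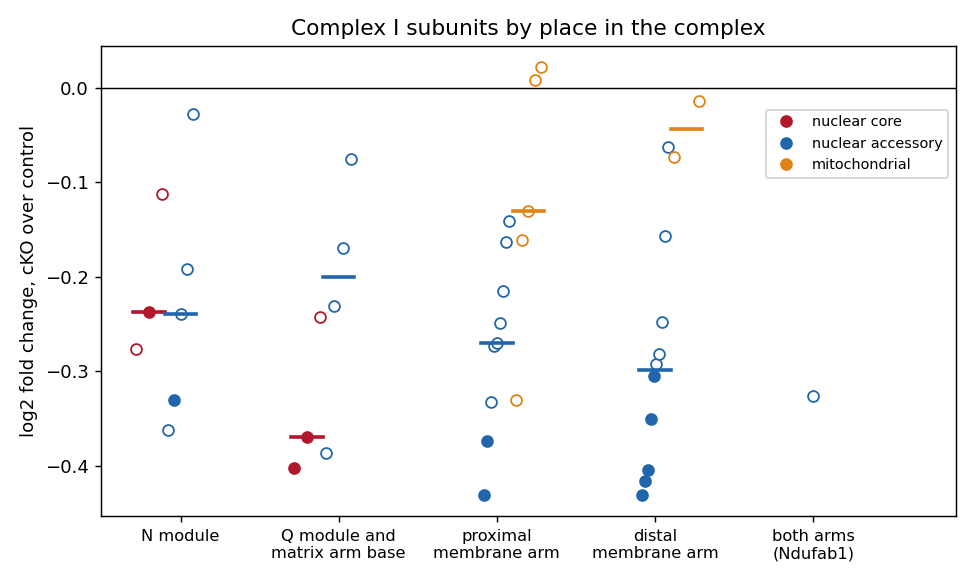
Log2 fold change (cKO over control) of the 42 subunits by their place in the complex, 1 point per gene. Filled points passed at an adjusted p under 0.05 and horizontal bars are medians of groups with more than 1 gene. Nuclear subunits lie below 0 in every place, and 5 of 10 passed in the distal membrane arm.

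Several accessory subunits lay just outside the threshold. Ndufb6 (adjusted p = 0.0446) was the last inside, and Ndufab1 (0.0510), Ndufa9 (0.0568), Ndufa5 (0.0575) and Ndufa2 (0.0612) followed, all by the authors' DESeq2 Wald test. NDUFAB1 is the mitochondrial acyl carrier protein, which also serves fatty acid synthesis and sits in both arms. Ndufa5, of the Q module, had a log2 fold change of -0.39, farther from 0 than 6 of the 11 that passed, with a standard error of 0.14. At the other end of the nuclear range Ndufv3 had -0.03, Ndufb3 -0.06 and Ndufa7 -0.08, with 95% intervals that all include 0. The intervals of Ndufv3 (-0.20 to 0.15) and Ndufb3 (-0.25 to 0.12), like that of the core subunit Ndufv1 above, do not reach the nuclear median. Across the 35 nuclear subunits the mean level and the fold change had a Spearman correlation of 0.20, given as a description over genes of the same libraries.

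The authors' lists from other pipelines held fewer subunits. Their sleuth list held 4, Ndufs8, Ndufc2, Ndufb10 and Ndufab1, against 3.24% of all genes tested and 6.79% of the genes in the nuclear subunits' range of means. Their featureCounts list held 0 subunits, against 0.659% of all genes, and 0 of the 1885 genes in that range of means (0.00%), so its 0 is not particular to complex I.

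The mitochondrially encoded subunits are all core subunits of the membrane arm and are transcribed from mitochondrial DNA, mt-Nd6 from the opposite strand to the others. None of the 7 passed the authors' DESeq2 Wald test, 1 had an unadjusted p under 0.05, and 0 were in the sleuth or featureCounts list. Their median log2 fold change was -0.07, a change of -4.95%, and 5 of 7 were negative. The nuclear median lay 0.20 lower on the log2 scale, a difference given with no test. Of the large antiporter-like proton pumps, mt-Nd2 had a log2 fold change of 0.02 (95% interval -0.20 to 0.24), mt-Nd4 had -0.01 (-0.20 to 0.17) and mt-Nd5 had -0.07 (-0.28 to 0.13) in the authors' deposited table. The intervals of mt-Nd2 and mt-Nd4 lie wholly above the nuclear median, and those of the other 5 include it. mt-Nd1, at the entry to the ubiquinone site, had -0.16 (-0.34 to 0.01). Of the small subunits mt-Nd3 had -0.13 (-0.34 to 0.08), mt-Nd4l 0.01 (-0.30 to 0.31) and mt-Nd6 -0.33 (-0.63 to -0.03), the last at an unadjusted p of 0.0310 and an adjusted p of 0.198. The 6 without mt-Nd6 had a median of -0.04. The 6 mitochondrially encoded mRNAs outside complex I had a median of -0.07, and none passed, although 2 had an unadjusted p under 0.05.

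Per kilobase of transcript, the mean levels of mitochondrially encoded subunits were far above those of nuclear ones. Their median was 504733 normalized counts per kilobase against 9011 for the nuclear subunits, a ratio of 56.0. The range was 210572 (mt-Nd3) to 1066800 (mt-Nd6) for the first, and 2867 to 28790 for the second. mt-Nd6 is the only one of the 7 on the minus strand of the annotation, and its 3′ end overlaps that of mt-Nd5 by 14 bases. mt-Nd4l in turn overlaps the start of mt-Nd4 by 7 bases. Whether counting used the strand was not given in the sources used here. Reads over these overlaps, and reads of longer RNA from the opposite strand across a whole gene, thus cannot be assigned. The level and the fold change of mt-Nd6 are therefore less certain as values of its mRNA. The ends of the overlapping genes are shown because they mark where the counts of neighbours meet, with the shared bases in capitals (GRCm38, plus strand, mt-Nd4l at chrM:10144-10173 and mt-Nd5 at chrM:13536-13565):
mt-Nd4l end: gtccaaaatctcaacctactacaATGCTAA
mt-Nd5 end: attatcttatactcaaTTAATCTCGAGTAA

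Some subunit transcripts share sequence with transcripts of other genes, be these copies, pseudogenes or neighbouring genes, and their values are less certain. The measure was the share of a transcript's 31-base words that also occur in transcripts of other genes or in their reverse complement. By it, 14 of the 42 members exceeded 20%, 5 of which had passed. The share was 98.9% for mt-Nd4l, 98.1% for mt-Nd3, 62.8% for mt-Nd4 and 55.0% for Ndufs3. For those that fell it was 45.4% for Ndufb2, 38.3% for Ndufb4, 36.1% for Ndufb6, 33.2% for Ndufa13 and 26.8% for Ndufs6. The words of Ndufb6 are shared with Smim27 (mean 208) and most of those of Ndufa13 with Tssk6 (mean 17.96). Ndufb2 shared most with Gm42420 (mean 10.3) and Ndufs6 with Ndufs6b (mean 1.53). These subunits had means from 4321 (Ndufb2) to 10892 (Ndufa13). Gm28438, which shares most with mt-Nd3, had a mean of 20545 against 73279. BC002163, with 47.3% of the words of Ndufs5, had 1179 against 4731. The main partners of mt-Nd4l and mt-Nd4 had a mean of 0, and that of Ndufs3 4.35. How reads over shared words were divided was not examined. Ndufb4 shares its words with Ndufb4c, which had a mean of 3962 in the authors' deposited table and itself fell, by 0.34 on the log2 scale (adjusted p = 0.0208, DESeq2 Wald test). Ndufb7, Ndufb10, Ndufc2, Ndufs1, Ndufs7 and Ndufs8, the 6 others that fell, had shares from 0 to 7.34%.

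Complex I assembly factors, and mitochondrial content genes outside the respiratory chain, had median fold changes nearer to 0 than the nuclear subunits. That contrast was not tested. The content genes encode parts of mitochondria, such as carriers. Of 20 tested assembly factors 16 were negative, with a median log2 fold change of -0.10. At an unadjusted p under 0.05 (DESeq2 Wald test) 6 were lower, and the sleuth and featureCounts lists held 0 of them. Their means ran from 259 to 3780, against 3394 to 20268 for the nuclear subunits. None of the assembly factors rose and 3 fell. In the authors' deposited table these were Aifm1, a flavoprotein needed for import of intermembrane space subunits, at -0.34 (adjusted p = 0.00840), Ndufaf6 at -0.45 (adjusted p = 0.0359) and Dmac2, a distal membrane arm assembly protein, at -0.35 (adjusted p = 0.0497). None of 22 mitochondrial content genes outside the respiratory chain passed, and their median was -0.09. Of these 19 were negative, and 6 were lower at an unadjusted p under 0.05. The authors' sleuth list held 1 of them and their featureCounts list 0. The most abundant of them, the carriers Slc25a4 and Slc25a3, had log2 fold changes of -0.15 and -0.24. Of 33 genes for mitochondrial transcription and RNA processing 2 fell, Fastkd2 (-0.55, adjusted p = 0.00128) and Hsd17b10 (-0.27, adjusted p = 0.0334), with a median of -0.05. Of 17 regulators of respiratory gene transcription 2 fell, the coactivator Ppargc1b (-0.37, adjusted p = 0.0179) and the muscle regulator Perm1 (-0.25, adjusted p = 0.0288), with a median of -0.06. Among 10 entries for other NADH and quinone dehydrogenases, with Nnt under more than 1 gene ID, 8 were negative and the median was -0.11. None of them fell and 1 rose, the ubiquinone reductase Aifm2 (0.43, adjusted p = 2.07e-04). Ndufa4l2, a relative of a former complex I subunit, fell by 0.50 on the log2 scale (adjusted p = 8.54e-04), as 1 of 6 genes of its list. Across all genes tested the median was -0.00, 3.31% fell, 3.78% rose and 50.8% were negative. Among genes in the nuclear subunits' range of means 7.00% fell and 59.6% were negative. No list was tested as a set.

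**Figure D3:**
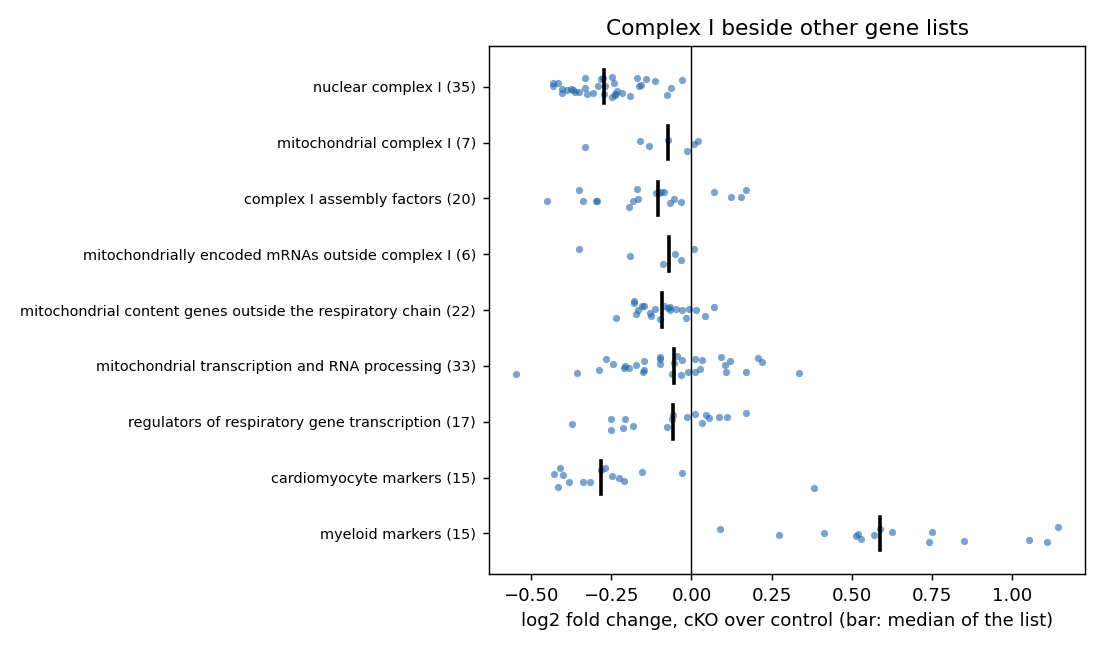
Log2 fold change (cKO over control) of the tested genes of 9 lists, 1 point per gene, with a bar at the median of each list and the number of genes in brackets. Nuclear complex I genes lie around a median of -0.27 and cardiomyocyte markers around -0.28, while assembly factors, mitochondrial content genes and mitochondrially encoded mRNAs lie nearer to 0 and myeloid markers above it.

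Markers of the cells that a heart holds moved too, and their part in the complex I values was not tested. Among cardiomyocyte markers Myl3 fell by 0.41, Actc1 by 0.40 and Myl2 by 0.38 on the log2 scale, each at an adjusted p under 0.05 in the authors' deposited table. The medians, set side by side with no test, were -0.27 for nuclear complex I, -0.28 for cardiomyocyte markers and -0.07 for mitochondrially encoded subunits. Single cardiomyocyte markers ran from -0.43 to 0.38. Of the myeloid markers Lyz2 rose by 1.11, Csf1r by 0.53 and Ms4a7 by 1.14. Among 10 fibroblast markers 1 fell (Thy1, -0.46), among 12 endothelial markers 1 rose (Vwf, 0.25) and among 10 mural markers 1 rose (Tagln, 0.47). Among 7 erythroid markers 1 fell (Hbb-bt, -0.71), at a median of -0.33. The shares over all genes tested were 3.31% that fell and 3.78% that rose. None of the 7 tested lymphoid markers of 10 passed, with 0 at an unadjusted p under 0.05. All 10 atrial and epicardial markers were positive with a median of 0.65, and none passed, with 4 at an unadjusted p under 0.05; the most abundant, Nppa and Myl7, had standard errors of 0.53 and 0.57. No marker of either list was in the sleuth or featureCounts list.

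Transcript length moved with the fold change across the whole table, and complex I mRNAs are short. The principal transcripts of the nuclear subunits ran from 419 to 3479 bases, with a median of 861. Among other protein-coding genes in the same range of means, the 80 with transcripts under 750 bases had a median log2 fold change of -0.16, 93.8% of them were negative and 6 fell. The median was -0.12 for the 184 of 750 to 1500 bases, -0.05 for the 549 of 1500 to 3000 bases and 0.00 for the 1007 over 3000 bases. Nuclear subunits under 750 bases (15 genes) had a median of -0.28, those of 750 to 1500 bases (13 genes) -0.29, and those of 1500 to 3000 bases (6 genes) -0.17. Ndufab1, at 3479 bases the only one over 3000, had -0.33. Spearman's correlation of length and fold change was 0.20 over the 35 nuclear subunits and 0.25 over 1820 other protein-coding genes in their range of means, as a description across genes of the same libraries. The part of length in the complex I values was not tested.

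**Figure D4:**
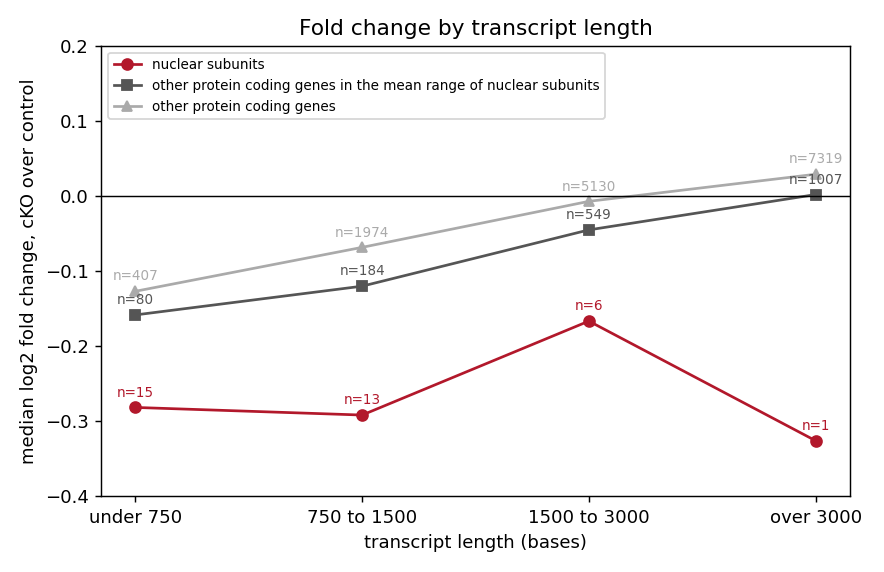
Median log2 fold change (cKO over control) by length of the principal transcript in bases, for nuclear complex I subunits, for other protein-coding genes in the same range of means and for all other protein-coding genes, with the number of genes at each point. The point of nuclear subunits over 3000 bases is 1 gene. Medians of other genes in the same range of means run from -0.16 to 0.00, and nuclear subunits lie below them in each class of length.

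The promoters of nuclear subunit genes are known for sites of NRF1, GABPA, YY1 and the estrogen-related receptors, which serve respiratory genes. A search on both strands of RefSeq promoters (GRCm38.p6, 250 bases before to 50 after the start) matched 32 of the 35 nuclear genes, with 34 promoters. The NRF1 letters, GCGCA and GCGC with any base between, were in 23.5% of them against 4.60% of all 32851 promoters, the YY1 letters AANATGGCG in 20.6% against 2.38%, the GABPA letters CCGGAAG in 11.8% against 8.86% and the ERR letters TNAAGGTCA in 2.94% against 1.28%. Against promoters of protein-coding genes outside complex I the shares compare with 6.57%, 3.24%, 11.9% and 1.03%. Any of the 4 was in 60% of the 10 promoters of subunits that fell and in 50% of the 24 of those that did not pass. These 2 small sets were not tested against each other. The share was 15.4% of all promoters and 20.2% of those of protein-coding genes outside complex I. Shown are promoters of subunits that fell, 1 for each motif by smallest adjusted p, with matches in capitals: Ndufb4 (chr16:37654319-37654618, minus strand) with 3 NRF1 matches and 1 ERR match, Ndufb7 (chr8:83566508-83566807, plus strand) with 1 GABPA match, and Ndufs7 (chr10:80249199-80249498, plus strand) with 1 YY1 match. A match describes letters and not binding.
Ndufb4 promoter: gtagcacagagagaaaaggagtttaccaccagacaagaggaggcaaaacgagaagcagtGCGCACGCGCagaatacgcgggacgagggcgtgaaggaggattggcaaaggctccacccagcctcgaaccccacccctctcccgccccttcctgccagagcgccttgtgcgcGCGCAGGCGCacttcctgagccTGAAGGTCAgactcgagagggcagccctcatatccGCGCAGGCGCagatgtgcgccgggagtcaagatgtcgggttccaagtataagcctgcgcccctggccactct
Ndufb7 promoter: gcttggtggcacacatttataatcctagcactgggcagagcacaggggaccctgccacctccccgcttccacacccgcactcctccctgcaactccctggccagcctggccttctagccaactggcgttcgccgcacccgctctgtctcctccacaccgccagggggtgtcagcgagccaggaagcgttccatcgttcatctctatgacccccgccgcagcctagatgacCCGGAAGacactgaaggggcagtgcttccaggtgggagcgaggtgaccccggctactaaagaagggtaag
Ndufs7 promoter: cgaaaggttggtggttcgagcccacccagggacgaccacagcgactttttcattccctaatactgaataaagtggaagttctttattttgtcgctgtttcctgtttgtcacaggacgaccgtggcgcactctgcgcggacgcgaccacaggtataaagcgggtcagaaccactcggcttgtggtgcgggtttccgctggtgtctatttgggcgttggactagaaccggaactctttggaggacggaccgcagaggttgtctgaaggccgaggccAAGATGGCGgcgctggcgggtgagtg

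No splicing event of a complex I gene reached the minimum change that the authors required of their changed events, 10 points of inclusion. The inclusion level is the percentage of transcripts that hold an exon, keep an intron or use a splice site, and the minimum change is the difference that the authors' vast-tools run gives as exceeded with a probability of 0.95. Of the events in the authors' deposited table, 396 lay in the 35 nuclear genes and none in the mitochondrial ones, whose genes have no introns. None of the 396 had a minimum change of 10 points or of 5 points. Of all 265079 events 0.230% reached 10 points and 1677 reached 5 points, so a count of 0 is not particular to complex I. Above 0 points there were 4, against 2.22%, and 9 had a plain difference of at least 10 points, against 2.46%. All of these lay in the 250 events of accessory subunits, and none in the 146 of core subunits; that contrast was not tested. Exons were close to fully included, with a median of 99.9% in both groups. Within 3 points of full inclusion were 82 of 99, against 80009 of 107748 exons of all genes. Introns were almost fully removed: 118 of 121 were under 5%, against 72661 of 100685 introns of all genes. Their median was 0.227% in control and 0.251% in cKO, against 2.19% and 1.85% for introns of all genes. Values so near 0 or full inclusion also depend on read depth, and its part in these contrasts was not tested. Inclusion between 10 and 90% was seen for 28 events (7.07%), against 9.86% of all events.

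**Figure D5:**
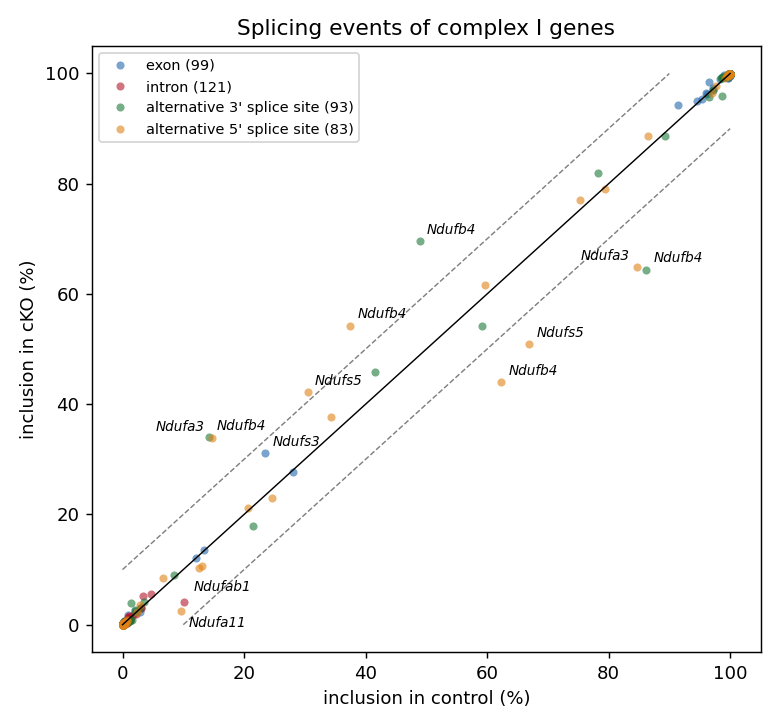
Inclusion level in cKO against control (both in %) for the 396 splicing events of nuclear complex I genes, coloured by kind. The solid line marks equal inclusion and the dashed lines a difference of 10 points. Most events lie on the line near 0 or 100%, and 9 events, in Ndufb4, Ndufs5 and Ndufa3, lie beyond the dashed lines.

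Both exons with a minimum change above 0 were included slightly more in cKO. Exon 2 of 3 of Ndufa6 (chr15:82350979-82351094, minus strand, GRCm38, 116 bases), an accessory subunit at the Q module, was included at 91.4% in control and 94.2% in cKO, with a minimum change of 2 points. Exon 2 of 5 of Ndufs4 (chr13:114351448-114351526, minus strand, 79 bases), an accessory subunit of the N module whose human gene is mutated in Leigh syndrome, went from 96.5% to 98.5%, with a minimum change of 1 point. Neither length is a multiple of 3. Without exon 2 the reading frame of Ndufs4 ends after 37 of 175 codons, and GENCODE lists that transcript as a target of nonsense-mediated decay. The frame of Ndufa6 without exon 2 ends after 72 of 131 codons, and that transcript is annotated as protein coding. Each is shown as annotated transcript sequence, with exon 2 in capitals in the full form and the early stop codon in capitals in the skipped form:
Ndufs4 with exon 2: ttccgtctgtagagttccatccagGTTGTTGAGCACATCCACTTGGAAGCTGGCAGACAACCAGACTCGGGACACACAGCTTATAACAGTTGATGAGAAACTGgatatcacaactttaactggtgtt
Ndufs4 without exon 2: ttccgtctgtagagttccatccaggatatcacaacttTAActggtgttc
Ndufa6 with exon 2: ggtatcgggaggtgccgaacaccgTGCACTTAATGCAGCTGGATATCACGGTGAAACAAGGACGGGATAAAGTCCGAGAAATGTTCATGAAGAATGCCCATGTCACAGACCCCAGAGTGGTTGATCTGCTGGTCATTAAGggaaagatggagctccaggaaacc
Ndufa6 without exon 2: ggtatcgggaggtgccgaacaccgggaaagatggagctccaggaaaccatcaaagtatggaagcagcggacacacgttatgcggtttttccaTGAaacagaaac
The fold changes of these genes, -0.19 for Ndufs4 and -0.17 for Ndufa6, did not pass.

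Ndufb4, which encodes a distal membrane arm subunit, held most of the larger differences. At the 3′ splice sites of its exon 2 the form of 147 bases, the annotated exon, made up 48.9% in control hearts and 69.7% in cKO hearts, with a minimum change of 1 point. In a second event of that exon, the form of 85 bases went from 14.3% to 34.0% and the form of 144 bases from 86.2% to 64.4%, both with a minimum change of 0. At its alternative 5′ splice sites 1 went from 37.4% to 54.3% and the other from 62.3% to 44.0%, also with a minimum change of 0. Exon 2 (chr16:37649014-37649160, minus strand, GRCm38) is shown with the first 62 bases, which the form of 85 bases leaves out, in capitals:
Ndufb4 exon 2: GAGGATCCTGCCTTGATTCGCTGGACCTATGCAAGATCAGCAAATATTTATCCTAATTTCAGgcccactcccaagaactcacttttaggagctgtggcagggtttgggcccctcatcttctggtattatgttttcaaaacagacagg
As given above, 38.3% of the Ndufb4 words occur in Ndufb4c as well, and Ndufb4 mRNA as a whole fell.

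The remaining events past 10 points were pairs of 5′ splice sites in small membrane arm subunits, each with a minimum change of 0. Ndufa3 had 1 site at 14.7% in control and 33.8% in cKO and its partner at 84.6% and 64.9%. Ndufs5, a disulfide-bonded protein of the intermembrane space, had 1 site at 66.9% and 50.9% and another at 30.5% and 42.2%. Among introns, the last of Ndufab1 (intron 4 of 4, 3247 bases, chr7:122088339-122091585, minus strand, GRCm38) was kept at 10.2% in control and 4.09% in cKO, with a minimum change of 1 point. In GENCODE 5 transcripts of this gene have an exon inside that intron. Whether reads of those forms enter the value was not examined. Of the core subunits the largest difference was an exon of 144 bases in Ndufs3, at 23.5% in control and 31.2% in cKO, with a minimum change of 0. Of the 11 subunits whose mRNA fell, Ndufb4 was the only one with an event past 10 points or with a minimum change above 0.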

How the data were processed

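RNA of 3 control and 3 cKO hearts was extracted with Trizol and made into stranded libraries, per the labels' protocols. The tools listed in the submitters' processing notes are kallisto 0.46.0, DESeq2 1.24.0, Trimmomatic 0.38 and FastQC 0.10.1. Per the file headers, the authors deposited for each gene a mean normalized signal over all libraries, a log2 fold change with its standard error, a Wald score, and a p-value with its adjusted value. They also deposited lists of genes that passed with sleuth and with featureCounts, and inclusion levels of splicing events as a fraction per group on mm9, with a score for the minimum change. Fractions are printed as percentages. Of 36558 genes 25665 had a p-value and 15929 an adjusted one, and the adjusted value equalled the Benjamini-Hochberg value recomputed here. Depth per sample, the strand setting and the versions of the other tools were not stated in these sources.

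No values per library were used, so the count test planned for such values was replaced by the DESeq2 test of the authors, at an adjusted p under 0.05. The p-values rest on the spread between 3 hearts per group. Groups were taken from the sample descriptions. IDs were matched to GENCODE M21 (GRCm38): 35856 matched and 702 did not. Levels per kilobase divide the mean by the length of the principal transcript. The 95% intervals are the log2 fold change plus or minus 1.96 standard errors. Events were matched to GENCODE exons and introns by unique length, and no coordinates were converted. For the direction of fold changes, genes with at least 3 exons within 3 points of full inclusion were used. Those exons come from the same libraries and are no independent replicate. The complex I genes and all lists were chosen with earlier results of these data known. All members may be named; of other lists the 3 genes of smallest adjusted p, or the 2 most abundant where none passed. Of events, those past a threshold or among the largest differences are named. The alternatives tried were other sets of genes for the adjustment, centring, the other pipelines' lists, weighted means, a minimum mean of 1000, leaving out members with shared words or mt-Nd6, and other event thresholds. Work was done in Python 3.11.15 with pandas 2.3.3, numpy 2.4.6, SciPy 1.17.1 and matplotlib 3.10.9, and the adjustment was tested on simulated data.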

Additional observations from a re-analysis of the deposited data

How the results depend on the processing

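No paired analysis was possible because only the authors' comparison of groups was used, and replicate numbers follow accession order alone. For the same reason leaving out a replicate, other normalizations and another filter on low counts were not run. Of 42 subunits 11 fell; 7 did with the adjustment taken over each of the 25665 genes that have a p-value (Ndufb10, Ndufb6, Ndufs6 and Ndufs7 lost the call), 14 over genes with a mean of at least 100 (Ndufa5, Ndufa9 and Ndufab1 gained it), and 10 after centring on the median of those genes (Ndufb6 lost it; the centre was -0.01). The sleuth list held 4 and the featureCounts list 0, as it did of all 1885 genes in the nuclear subunits' range of means. Without subunits that share over 20% of their words, chosen after seeing the data, 6 of 28 had fallen, since 5 that had passed were left out. The nuclear minus mitochondrial difference, -0.20, was -0.15 as a weighted mean and -0.23 without mt-Nd6, also chosen after seeing the data. Core minus accessory was 0.01 by medians and by weighted means. A minimum mean of 1000 left out no subunit and so tested nothing. Splicing events past the threshold went from 0 to 4 at a minimum change above 0 and to 9 by plain difference of 10 points. The share of genes with the sign of read depth was 94.7% by exons and 75.2% by introns; the cause was not tested. Adjusted over every gene with a p-value, 1 assembly factor and 1 gene of mitochondrial transcription and RNA processing fell, and no endothelial or mural marker rose.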

Other observations

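A transcript that joins a neighbouring gene to a subunit gene stood apart, and was chosen after its values were seen. Gm49356 (chr15:58889298-58937359, plus strand, GRCm38) is annotated as a target of nonsense-mediated decay, and of its 3 exons 2 overlap Ndufb9, a distal membrane arm subunit, and 1 overlaps Rnf139, a ubiquitin ligase gene. In the authors' deposited table it was 5.08-fold higher in cKO, a log2 fold change of 2.34 with a standard error of 0.32 (adjusted p = 5.72e-11, DESeq2 Wald test), and it was in the sleuth and featureCounts lists as well. Its mean was 75.6 normalized counts, 0.373% of that of Ndufb9. Ndufb9 itself had a log2 fold change of -0.25 (adjusted p = 0.183) and Rnf139 one of -0.14 (adjusted p = 0.390), neither past the test. Of the 31-base words of Ndufb9, 25.5% occur in Gm49356.

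The read depth behind near-constitutive exons, relative to the median of all genes, gave another view of the members from the same libraries. Of 8 nuclear subunits with such exons 7 lay below the median of all genes, at a median log2 ratio of -0.37, against 49.8% of genes outside complex I. By introns near 0, 12 of 17 subunits lay below it, with a median of -0.13.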
